A study of Mus musculus with 8 samples.

Results

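Of the 28933 Foxk1 peaks in the list deposited by the authors, the 1724 on mouse chromosome 15 (5.96%) are described here, chosen only by the chromosome on which the file places them. The list came from mouse embryonic fibroblasts (MEFs), connective-tissue cells cultured from embryos, grown in DMEM without any treatment. Of the 8 libraries in the series, 3 were made with a Foxk1 antibody, 3 with IgG as a control antibody and 2 from input chromatin, without an antibody. No mouse strain, genotype, embryonic age or number of separate cultures was found in the labels. According to its header, the list compares Foxk1 with input on mm9, so it holds 1 comparison and no value per library. Each value below is therefore given without replicate error, and differences between stretches or chromosomes are described without a test. Read depth is unknown, and enrichment that the IgG libraries would share cannot be told apart from enrichment specific to the Foxk1 antibody.

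Foxk1 is a forkhead box transcription factor, which binds DNA through a winged-helix domain at sites built around a short A- and C-rich core. In fibroblasts and muscle cells it is known for repressing autophagy genes when nutrients are plentiful and for promoting glycolysis. A peak marks a place where more fragments were recovered with the antibody than in input, and does not show whether a gene nearby is regulated. Mouse chromosomes are acrocentric, with the centromere at the low end of the coordinates. Gene neighbourhoods named below come from general knowledge of the mouse map at the scale of 1 Mb and are background. No gene start was set against a peak, because the only gene table at hand was for a different assembly, GRCm38.p6, and was used solely for the order in which genes follow each other.

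Foxk1 peaks reached from one end of chromosome 15 to the other, but in an uneven pattern. The first summit, the position of highest enrichment inside a peak, lay at 3197630 and the last at 103307770, a span of 100.1 Mb. Density was 16.7 peaks per Mb, counted up to the highest peak end, 1.52 times the 10.98 of chromosomes 1 to 19 and X together. Chromosome 15 ranked 3 of 20 by this measure, next to chromosome 11 with 17.3 and below chromosome 19 with 21.9. Chromosome 10 followed with 15.2. The number of peaks on chromosome 15 ranked only 8 of 20, because it is among the shorter chromosomes, ranking 16 of 20 by highest peak end.

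In windows of 1 Mb, counted from base 1 and taken from the first to the last window with a summit, the median was 14 peaks over 101 windows, against 9 over all chromosomes. Only 1 window, from 19000001 to 20000000, had no summit, and 12 had 1 or 2. Without the weaker 50% of the list, 11 windows had no summit. This rise follows in part from the shorter list, and no count over all chromosomes stands beside it. At the other end, 19 windows (18.8%) held at least 30 peaks, where 6.32% of the windows of all chromosomes did. This share was 11.02% on chromosome 10, 15.97% on chromosome 11 and 27.1% on chromosome 19. The 25 fullest windows, or 24.8% of them, held 50.8% of the peaks of the chromosome. The variance of the counts was 9.79 times their mean, the second highest ratio of 20 chromosomes. It was 9.23 on chromosome 19, 8.28 on chromosome 11 and 7.45 on chromosome 10. This ratio was not adjusted for the mean count, which is high on dense chromosomes. In windows of 100 kb the ratio was 2.78, rank 9 of 20. The share of 1 Mb windows with a summit, 99.0%, ranked 2 of 20. It was 95.3% on chromosome 10, 90.8% on chromosome 11 and 87.6% over all chromosomes, and on chromosome 19 all 59 windows held a peak. The fullest window held 50 peaks on chromosome 10, 57 on chromosome 11, 61 on chromosome 15 and 69 on chromosome 19. Chromosome 15 thus held both full and sparse windows, and so did chromosomes 10 and 11.

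**Figure D1:**
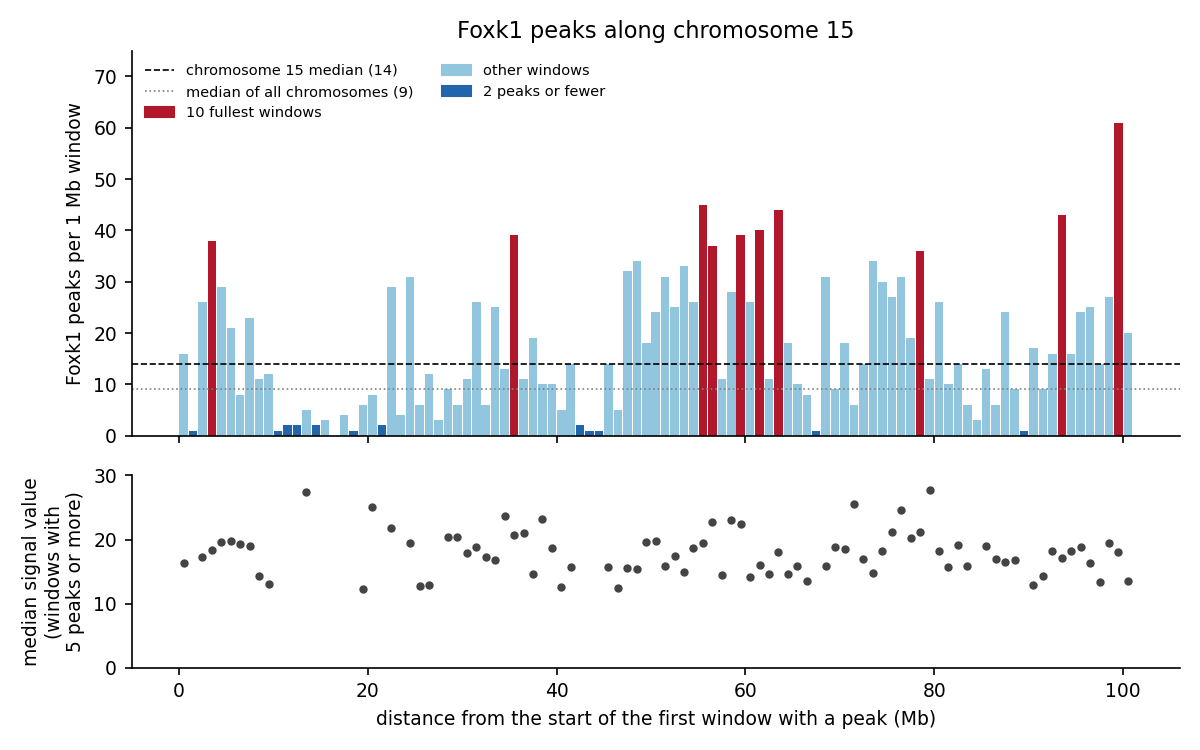
Foxk1 peaks per 1 Mb window along chromosome 15 (upper panel, 101 windows) and the median signal value of the peaks in each window that held 5 or more (lower panel, 83 windows), against distance from the start of the first window with a peak in Mb. The tallest bar, near the right end, stands for 61 peaks, a stretch of low bars lies at the left, and the medians in the lower panel lie between 12.3 and 27.7.

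The fullest window lay near the end of the chromosome, from 102000001 to 103000000, and held 61 peaks with a median signal value of 18.1. This is the stretch that contains the Hoxc cluster, whose homeobox genes give embryonic cells their position along the body, and the zinc finger genes Sp1 and Sp7. In the GRCm38.p6 gene order the 9 Hoxc genes follow each other with 0 other protein-coding genes between them, flanked by Calcoco1 and Smug1. The next fullest window, from 58000001, held 45 peaks and covers the neighbourhood of Fbxo32, which encodes a ubiquitin ligase of muscle wasting known as a target of forkhead factors of the FoxO class. The window from 66000001 held 44 peaks and lies around Ndrg1, a gene induced by hypoxia and stress. Of these 44, 7 (15.9%) had a signal value of at least 50, against 8.24% on the chromosome and 7.97% of all peaks. The window from 96000001 held 43 and covers Arid2, a chromatin remodelling subunit, and the amino acid transporter Slc38a2.

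The other members of the 10 fullest windows held between 36 and 40 peaks. The window from 64000001 held 40, and no gene of the list of loci could be placed in it with certainty. The window from 62000001 held 39 and contains part of Pvt1, the noncoding RNA gene that follows Myc. The window from 38000001 held 39 and contains Klf10, a zinc finger gene induced by TGF-beta, and the one from 6000001 held 38 and contains Dab2, an endocytic adaptor, and Osmr, the oncostatin M receptor. The window from 59000001 held 37, around the pseudokinase gene Trib1, and that from 81000001 held 36, around Ep300, a histone acetyltransferase. Together these 10 windows, 9.90% of the length in windows, held 422 peaks or 24.5% of those on the chromosome.

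Dense windows lay side by side in the middle of the chromosome. All 10 windows from 50000001 to 60000000 held more peaks than the chromosome's median, the lowest 18 and the highest 45. The 305 peaks of this stretch made up 17.7% of the chromosome and came to 30.5 per Mb. In order along the chromosome, the stretch passes Trps1 (a GATA-type repressor of cartilage and hair growth), Ext1 (heparan sulfate synthesis), Tnfrsf11b (osteoprotegerin), Enpp2 (autotaxin), Has2 (hyaluronan synthesis), Fbxo32 and Trib1. The median signal value of its peaks was 17.4, close to the 17.6 of the whole chromosome, and 24 peaks (7.87%) had a signal value of at least 50. After 1 window with 11 peaks, 4 more windows from 61000001 to 65000000 held 133 peaks, 33.25 per Mb, with a median signal value of 18.5. The longest run of 1 Mb windows above the median of their own chromosome was 10 windows here and ranged from 5 to 13 over the 20 chromosomes.

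Sparse windows also followed each other. From 11000001 to 25000000, 14 windows in a row lay below the chromosome's median and held 59 peaks in all, 4.21 per Mb. The median signal value of these peaks was 14.6 and the highest 54.9. Of the 59, 3 (5.08%) reached 50, against 8.24% on the chromosome and 7.97% of all peaks. No run of this kind on the 20 chromosomes was longer, and chromosome 7 had one of the same length. Each run was set against its own chromosome's median, 14 here and 4 on chromosome 7, so its length does not compare sparseness between chromosomes. The first windows of this run held 11 and 12 peaks, above the median of 9 over all chromosomes. Over the whole chromosome, the longest run of 100 kb windows without a summit was 17 windows and ranked 19 of 20. It lay outside this stretch, from 46100001 to 47800000. The part from 11000001 to 25000000 carries classical cadherin genes, spread over long stretches without other genes. They encode adhesion proteins of nerve and other cells. In the GRCm38.p6 order Cdh6, Cdh9, Cdh10 and Cdh12 are consecutive protein-coding genes. A second sparse stretch, from 45000001 to 48000000, held only 4 peaks in 3 windows, the highest with a signal value of 19.5. By segments of 10 Mb, the count ran from 61 peaks between 10000001 and 20000000 to 305 between 50000001 and 60000000, and the mean per window from 6.1 to 30.5.

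Some of the 10 longest intervals between neighbouring summits, including the top-ranked ones, fell in these sparse stretches, and others lay elsewhere. The longest was 1.74 Mb, from 46082007 to 47822990, and the next was 1.70 Mb, from 18797301 to 20498151. The remaining intervals over 1 Mb ran from 16863103 to 17994145 (1.13 Mb), from 87485123 to 88570210 (1.09 Mb) and from 20832479 to 21883405 (1.05 Mb). Of the 5, 3 lay within the cadherin stretch. The sparse stretches were picked for their low counts, so long intervals inside them are in part built in. Next came intervals of 0.98 Mb after 73471198, 0.94 Mb after 43308760, 0.83 Mb after 12974856, 0.82 Mb after 28366763 and 0.81 Mb after 3974889. The 5 intervals over 1 Mb were 5 of 1723 on the chromosome, whereas 1.18% of all intervals were that long. Chromosome 19 had 0 such intervals, chromosome 10 had 6 and chromosome 11 had 8. The longest interval of chromosome 15 was shorter than that of every other chromosome but 19, where it was 0.94 Mb. The median of the longest interval over 20 chromosomes was 3.76 Mb.

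The 5 longest intervals were bordered by 10 peaks. The peaks at 16863103, 87485123 and 20832479 had signal values of 53.4, 92.9 and 42.0, and the other 7 had signal values between 11.6 and 19.5.

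At the scale of 100 kb, 595 of 1003 windows (59.3%) held a summit, where 44.4% of the windows of all chromosomes did. The share was 59.2% on chromosome 10, 59.1% on chromosome 11 and 67.5% on chromosome 19. Windows with at least 5 summits, called dense here, numbered 114 or 11.4%, where the share over all chromosomes was 6.03%. They held 747 peaks, 43.3% of the chromosome, against 34.8% for dense windows over all chromosomes. The share of dense windows ranked 2 of 20, after chromosome 19 with 15.5%, and stood at 11.1% on chromosome 11 and 8.75% on chromosome 10. On chromosome 15, 10 windows held 10 summits or more.

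**Figure D2:**
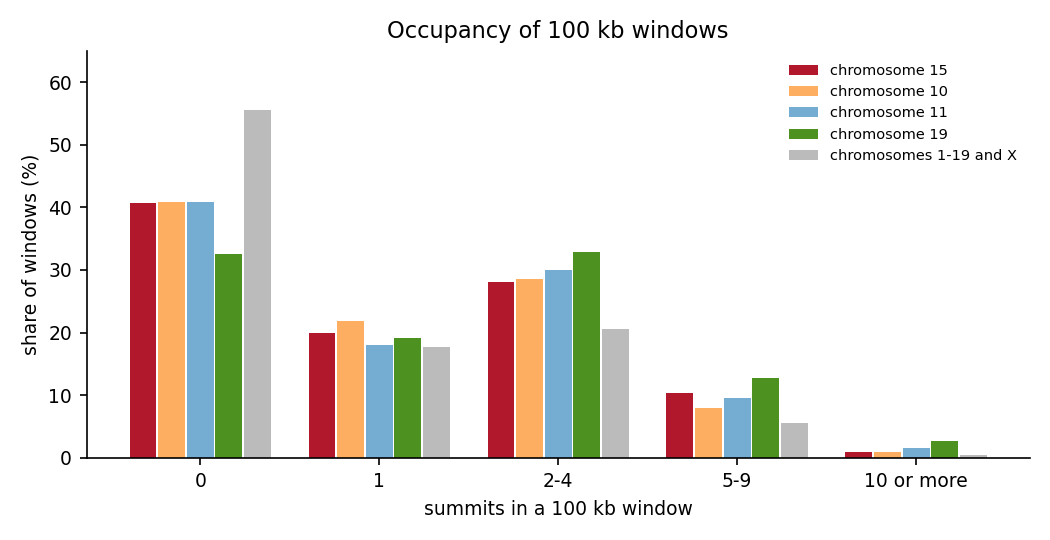
Share of 100 kb windows (vertical axis, percent) by the number of summits they hold (horizontal axis) on chromosomes 15, 10, 11 and 19 and over chromosomes 1 to 19 and X. Windows without a summit make up 40.7% on chromosome 15 and 55.6% over all chromosomes, and those with 5 to 9 make up 10.4% and 5.55%.

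The fullest window of 100 kb ran from 102800001 to 102900000, in the Mb that holds the Hoxc cluster, and contained 14 peaks between the summits at 102802404 and 102888836. Only 2 of them stood out. The peak from 102828254 to 102828713 had a signal value of 68.8 and the peak from 102811714 to 102812173 had 58.8. The other 12 had signal values from 11.9 to 19.6, on either side of the list's median of 17.8. A run of 4 summits between 102830981 and 102833543, spread over 2562 bp, had signal values of 19.3, 11.9, 19.6 and 17.0. The median of the 14 peaks, 16.2, lay under the chromosome's median of 17.6.

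The other 9 of the 10 fullest windows of 100 kb held 10 peaks each. Their median signal values differed widely. The highest, 33.8, belonged to the window from 61900001 to 62000000, where the signal values ran from 12.6 to 59.0, and the lowest, 13.2, to the window from 103000001 to 103100000, where they ran from 11.5 to 34.5. The window from 58300001 had a median of 28.4 and a highest value of 70.8. The window from 81600001, in the Mb of Ep300, had a median of 25.3 and contained 1 of the 10 highest peaks of the chromosome, with 217. Medians in the windows from 10600001, 53000001, 76000001, 51600001 and 64000001 were 21.9, 21.3, 18.96, 17.8 and 16.1. Windows with the same number of peaks thus differed in their medians by more than a factor of 2.

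The longest run of dense windows covered 500 kb, from 61800001 to 62300000, with 8, 10, 5, 9 and 6 summits in its 5 windows. This is the stretch of Myc, the growth-promoting transcription factor gene, and the noncoding Pvt1. In the GRCm38.p6 order Gsdmc is the next protein-coding gene after Myc, so no protein-coding gene stands between them. The 38 peaks of the run had a median signal value of 23.1, with the lowest at 11.3 and the highest at 147. Signal values of at least 50 were found in 7 of them (18.4%), against 8.24% over the chromosome and 7.97% over all peaks. Among all peaks in dense windows of the chromosome the share was 10.3%. In the runs of 4 dense windows, from 101900001, 66600001 and 58200001, it was 3.23%, 16.7% and 11.5%. The highest was the peak from 62159785 to 62160244, one of a chain of 4 summits over 1286 bp whose other members had 12.3, 57.7 and 13.5. The other peak over 100 lay from 61859914 to 61860373, with 128. The first pair of summits of the run, at 61815153 and 61816719, had signal values of 16.5 and 30.6, so the strong peaks lay further along. The longest run of dense windows was 6 on each of 2 chromosomes, 10 and 13, and 5 or fewer on the others.

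**Figure D3:**
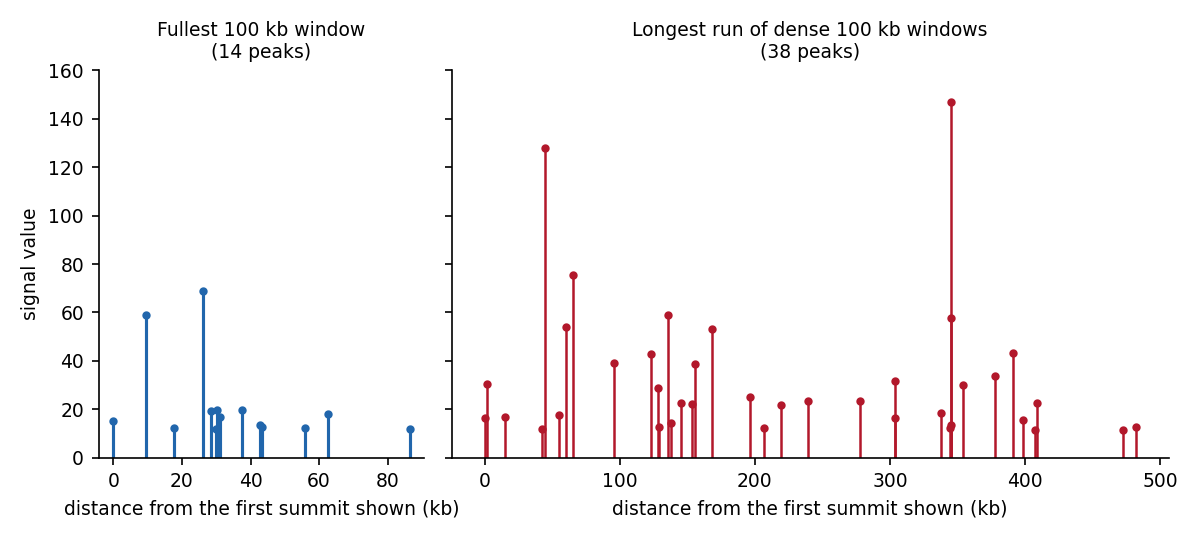
Signal value (vertical axis) of each peak in the fullest 100 kb window of chromosome 15 (left, 14 peaks) and in the longest run of dense 100 kb windows (right, 38 peaks), against distance from the first summit shown in kb. The left panel has 2 peaks above 50 among values under 20, and the right panel has 7 above 50, of which 2 exceed 100.

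Among intervals between neighbouring summits, the median was 19.3 kb, against 24.8 kb over all chromosomes, 19.02 kb on chromosome 11, 23.2 kb on chromosome 10 and 15.1 kb on chromosome 19. Another summit lay within 2 kb of 27.7% of the peaks, within 5 kb of 42.8% and within 10 kb of 57.2%. The same shares over all chromosomes were 25.8%, 39.6% and 52.3%. Intervals of at least 500 kb made up 1.74% on chromosome 15 and 3.22% over all. Chromosome 15 had a smaller share of long intervals and slightly larger shares in each length class from 500 to 50000 bp. Intervals under 500 bp made up 3.13% on chromosome 15 and 3.25% over all.

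**Figure D4:**
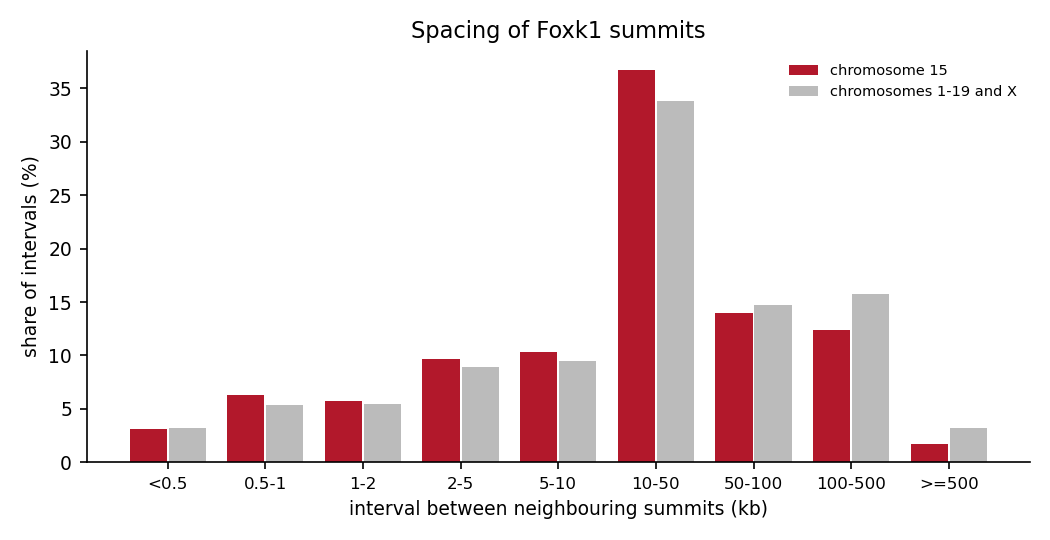
Share of intervals between neighbouring summits (vertical axis, percent) by length in kb (horizontal axis) for the 1723 intervals of chromosome 15 and the 28912 of chromosomes 1 to 19 and X. Intervals of 10 to 50 kb make up 36.7% on chromosome 15 and 33.8% over all, and those of 100 to 500 kb make up 12.4% and 15.8%.

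Peaks of 460 bp overlapped their neighbour in 41 cases, 2.38% of neighbouring pairs against 2.63% over all chromosomes, although the chromosome is denser than most. The closest summits were 198 bp apart, with peaks from 77718541 to 77719000 and from 77718739 to 77719198 and signal values of 28.4 and 21.4. Summits less than 2000 bp apart formed 179 chains of 2, 29 of 3, 7 of 4 and 1 of 5. The chain of 5 ran from 76034723 to 76038736 with signal values between 12.1 and 50.2. In the 262 pairs within 2000 bp, the stronger peak had a median signal value of 28.4 and the weaker 14.3. The median ratio within a pair was 1.72. Each pair was first sorted by signal value, so a gap between stronger and weaker was built in. In 2 of these pairs both values were at 50 or above, where 8.24% of all peaks on the chromosome reached 50. One joined peaks starting at 63172216 and 63174149, with 59.6 and 63.1. The other was the pair at 62159785 in the longest run of dense windows, with 147 and 57.7.

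The signal value is the authors' own score for a peak, and its scale is not stated. It had a median of 17.6 on chromosome 15, with 25th and 75th percentiles of 13.2 and 28.3, against 17.8, 13.5 and 27.6 over all peaks. The lowest value listed on the chromosome was 11.32, at 10767826 to 10768285 with a q-value of 0.00994, and the list as a whole ends at the same value to this precision. There were 142 peaks at 50 or above, 8.24% (95% Wilson interval 7.03 to 9.63, which covers counting error only and takes peaks as independent), against 7.97% of all peaks. At 100 or above there were 29 peaks, 1.68% (1.17 to 2.41), against 1.47% of all peaks. Both intervals include the share of the whole list. Chromosome 15 held 5.89% of the list's peaks at 20 or above, 6.16% of those at 50 or above and 6.81% of those at 100 or above, near its 5.96% of the list. The lowest q-value, 0.00014, was given to 211 peaks, 12.2% against 12.3% over all.

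**Figure D5:**
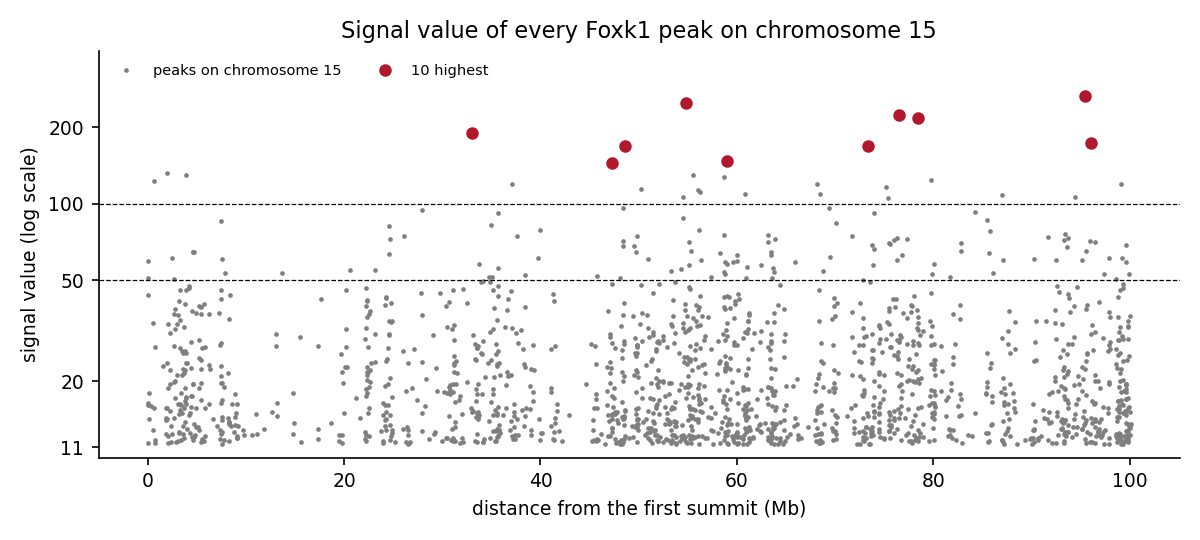
Signal value of the 1724 peaks on chromosome 15 (vertical axis, log scale) against distance from the first summit in Mb, with the 10 highest marked and dashed lines at 50 and 100. The 10 highest peaks, from 144 to 266, lie in 10 different 1 Mb windows, all beyond the sparse stretch at the left. Peaks with 131.7, 129.9 and 122.7, at ranks 11, 12 and 16, lie before that stretch.

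The highest peak lay from 98711554 to 98712013 with a signal value of 266, rank 7 in the whole list. It stands in the Mb that holds Wnt1 and Wnt10b, which encode secreted signals, and the alpha-tubulin genes Tuba1a, Tuba1b and Tuba1c. Its nearest neighbour was 35.9 kb away. The peak from 58046229 to 58046688 came next with 249, rank 15 in the list, in the Mb of Fbxo32, and was 39.4 kb from its nearest neighbour. The peak from 79758011 to 79758470 had 223 and lies in the Mb of Pdgfb, a growth factor for fibroblasts, and the peak from 81640539 to 81640998 had 217, in the Mb of Ep300.

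The remaining members of the 10 highest had signal values under 200. The peak from 36234566 to 36235025 had a signal value of 190.2, in the Mb of Ywhaz, which encodes a 14-3-3 adaptor protein. The peak from 99223048 to 99223507 had 173, in the Mb of the chromatin remodelling subunit gene Smarcd1. Peaks from 51823098 to 51823557 and from 76554092 to 76554551 had 169 and 168. The peak from 62159785 had 147, in the Mb that contains part of Pvt1. The peak from 50496161 to 50496620 had 144, in the Mb of Trps1. The next highest value on the chromosome was 132.

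The share of the highest peaks in full windows was near the share of all peaks there. The 10 highest lay in 10 different windows of 1 Mb, of which 3 were among the 10 fullest, which held 24.5% of all peaks of the chromosome. In dense windows of 100 kb there were 4 of the 10, where 43.3% of all peaks of the chromosome lay, and 14 of the 29 peaks at 100 or above. Of the 10, 5 had another summit within 10 kb, against 57.2% of all peaks on the chromosome. The peak from 76554092 was the only summit in its window of 100 kb. As the members were picked as the highest, a neighbour had to be weaker. The peak of 217 had a summit with 28.4 at 530 bp, and the peak of 173 had one with 30.7 at 4196 bp.

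Over all peaks of the chromosome, the median signal value was higher where more summits shared a window. The 200 peaks alone in their window of 100 kb had a median of 15.04, the 777 in windows with 2 to 4 summits had 17.2, and the 747 in dense windows had 18.7. The share with a signal value of at least 50 was 5.50%, 6.95% and 10.3% in the same order. Over all chromosomes these shares were 5.75%, 7.84% and 9.15%, and the medians 16.0, 17.8 and 18.8. The difference in medians between dense and lone peaks, 3.71, was 0.13 with the weaker 50% of the list left out and 5.46 with close summits merged. Leaving out weak peaks acts on the signal value itself and on which windows count as dense, so the smaller value is in part built in. Merging kept the strongest summit of each chain and changed which windows were dense, so it too acted on the values compared. In the 83 windows of 1 Mb that held 5 peaks or more, the count and the median signal value were only weakly related (Pearson's r = 0.11, Spearman's rho = 0.18, across windows of 1 list, which share libraries and threshold). Counts in neighbouring windows of 1 Mb had an r of 0.30 and a rho of 0.35 over 100 neighbouring pairs. The r was 0.40 on chromosome 10, 0.41 on chromosome 11 and 0.04 on chromosome 19.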

How the data were processed

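Reads were aligned to mm9 with Bowtie, per the submitters' processing notes, but for how peaks were called, and whether libraries were pooled, nothing is given in the sources used here. For each peak the authors deposited a signal value, which is a score whose scale is not stated, and a q-value on a linear scale. The peaks on chromosome 15 were taken by the chromosome column, and coordinates were written 1-based on mm9. Summits were counted in windows of 1 Mb and 100 kb from base 1, between the first and the last window with a summit. Chromosomes 1 to 19 and X were compared, with the highest peak end as the length. Foxk1, IgG and input libraries were grouped by antibody label or title, but no value per library was used, so no spread between replicates was computed.

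The chromosome, the loci and the rules were chosen with earlier results of these data known. By rule, the 10 highest peaks, the 10 fullest windows of each size and the 10 longest intervals were named. Of 68 gene symbols looked up in the RefSeq table of GRCm38.p6, 67 were found on chromosome 15, and only their order was used. Mkl1 was not found there under that symbol, which does not place the gene on another chromosome. Peak sequences, motifs and distances to genes were not analysed here. Alternatives were the upper part of the list by signal or q-value, merged summits, another length and shifted windows. Window and interval functions were tested on simulated positions. Python 3.11.15, numpy 2.4.6, pandas 2.3.3, scipy 1.17.1 and matplotlib 3.10.9 were used.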

Additional observations from a re-analysis of the deposited data

How the results depend on the processing

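Keeping only the stronger 50% of the list by signal value, or only those with a q-value of at most 0.001, left 849 and 863 of the 1724 peaks, so counts fell by construction. Density became 8.23 and 8.36 peaks per Mb, the fullest 1 Mb window held 32 peaks in both, the fullest 100 kb window 8 in both, the median interval became 39.4 and 38.8 kb, the median signal value 28.4 and 28.3, and overlapping pairs numbered 15 and 16. The difference in median signal value between dense and lone peaks became 0.13 and 0.31, and 5.46 with summits less than 2000 bp apart merged. Both limits act on the measure compared and change which windows are dense, so the smaller differences are in part built in. Merging also moved the median signal value to 18.6, because the stronger summit was kept. It too acted on the measure compared and changed which windows were dense.

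The ratio of the density of chromosome 15 to that of all chromosomes stayed between 1.48 and 1.52, and its rank stayed at 3, under these 3 alternatives and with length taken from first to last summit. Of the 10 fullest 1 Mb windows, 8, 9 and 9 stayed among the 10 fullest with the signal limit, the q-value limit and merging. Dense 100 kb windows fell from 114 to 25, 30 and 75 in the same order, intervals over 1 Mb went from 5 to 16, 16 and 5, and 1 Mb windows without a summit from 1 to 11, 10 and 1. With 1 Mb windows shifted by 500 kb the fullest held 51 and 2 were empty, and with 100 kb windows shifted by 50 kb it held 15. The motif alternative was not run. No paired analysis was possible because replicates have no values of their own in the list, which also prevents leaving one out. Since depth is unknown, a stretch without peaks had none detected at this threshold.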

Other observations

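Windows of 1 Mb differed in how number and strength of peaks went together. The 1 Mb window with 61 peaks, in which the Hoxc cluster lies, had a highest signal value of 119 and 6.56% of its peaks at 50 or above, under the 8.24% of the chromosome. The window from 58000001, in which Fbxo32 lies, held 45 peaks, of which 5 (11.1%) reached 50, the highest with 249. The window from 61000001, in which Myc lies, held 28 peaks, and 6 of them (21.4%) reached 50 and its median signal value was 23.1. The window from 81000001 held 36 peaks, of which 1 (2.78%) reached 50, and that peak had a signal value of 217. Between 86000001 and 90000000, 4 windows below the chromosome's median held 28 peaks, of which 7 (25%) reached 50. These windows and this stretch were chosen after their values were seen.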
